A study of Mus musculus with 16 samples.

Results

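Immediate early genes are transcribed within minutes of a stimulus such as synaptic activity, a growth factor or stress, without new protein synthesis. The 7 genes described here are 6 of them, Fos, Junb, Egr1, Btg2, Ier2 and Ier3, and Cdkn1a, which encodes p21, an inhibitor of cyclin-dependent kinases that is induced by p53 and by other stress pathways. They were chosen with earlier results of these data known, and their probe sets were taken by platform gene symbol. The 7 are among 8252 genes with a single symbol on the array, and 11 probe sets carry one of their symbols. Spinal cord RNA of mice was hybridised to 16 single-colour arrays, each with 12488 probe sets. Spastic mice, which carry a recessive mutation of Glrb, which encodes a subunit of the glycine receptor that inhibits spinal neurons, were represented by 6 arrays of 5 samples. By title these were the cords called Spa1 and Spa2, female and 2 months old, the cord titled sev, male and 3 months old, a male of 3+ months, read as at least 3 months, and the female cord titled Spa-M of 6 months, which had 2 arrays. The B6C3Fe group, named after a hybrid mouse stock, was 1 sample of 2 arrays, titled male and 1 month old. Controls were 8 arrays of 4 samples, a female and a male of 9 months and a female and a male of 12 months. The titles give no genotype for the controls or the B6C3Fe mice, and the meaning of sev and of the letter M was not interpreted. Group and age change together, since the controls are older and the B6C3Fe mice younger than the spastic mice, apart from the open upper age of the 3+ month male.

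In the nervous system, firing neurons raise Fos, Junb and Egr1 through calcium and MAP kinase signals that reach the transcription factors CREB and SRF. The Fos and Jun proteins pair into the AP-1 transcription factor, and Egr1 is a zinc finger transcription factor. Btg2 slows cell division and recruits the enzymes that shorten poly(A) tails, Ier3 modulates cell survival under stress, and Ier2 is a nuclear protein induced by growth factors. These RNAs are short-lived, so their levels also follow handling and the time around death.

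Intensities are linear, and the scaling was done before deposit. For tests, values under a floor of 60.86, the 20th percentile of all values, were set to it, log2 was taken, and arrays that differ in title by the letter a or b were averaged. Whether a and b came from different animals is not stated, and p-values cover the variation among these samples alone, which may be technical. Median intensity per array was 289.0 to 383.6, and the number of arrays limits the precision. Glrb was at 9.92 to 11.12 on spastic arrays, 12.92 to 12.98 on B6C3Fe arrays and 12.70 to 13.30 on control arrays on the log2 scale. Summed over 11 neuronal markers, intensity was 73950 to 99760 on spastic, 74990 to 76370 on B6C3Fe and 75380 to 93190 on control arrays. The sum follows the brightest markers and hides differences of single ones. By limma, 3 of the 11 were lower in spastic than in control cords and 1 was higher. Of all 6425 genes tested, 9.82% were called higher and 19.8% in either direction. Map2 was at -2.85 (adjusted p = 0.00255), Syt1 at -2.83 (adjusted p = 0.00203) and Nefl at -1.10 (adjusted p = 0.00214) on the log2 scale. Nefm was at 0.39 (adjusted p = 0.0482). The other neuronal markers, from Snap25 at -0.11 to Thy1 at 0.31, did not pass. Xist, expressed in females, was at 10.54 and 10.37 on the spastic arrays titled male, against 5.93 to 5.97 on the B6C3Fe and control arrays titled male, so these spastic arrays go against their titled sex. In bulk cord, fewer cells of a type and less RNA per cell cannot be told apart.

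Spastic against control cords asks which of these genes differ in the mutant cord. Of the 7 genes, 4 were higher in spastic cords and 0 lower by limma at an adjusted p under 0.05, namely Ier3, Cdkn1a, Btg2 and Ier2, against 9.82% of all 6425 genes called higher and 19.8% called in either direction. The median log2 difference of the 7 was 0.63, and that of all genes tested was -0.02. Since the 7 were chosen with earlier results of these data known, setting them beside all genes is description and not independent support. Egr1, Fos and Junb had positive differences that did not pass. All 7 passed the filter on low values. Of the 4 calls, those of Cdkn1a, Btg2 and Ier2 were lost when certain single samples were left out, and that of Ier3 was not.

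**Figure D1:**
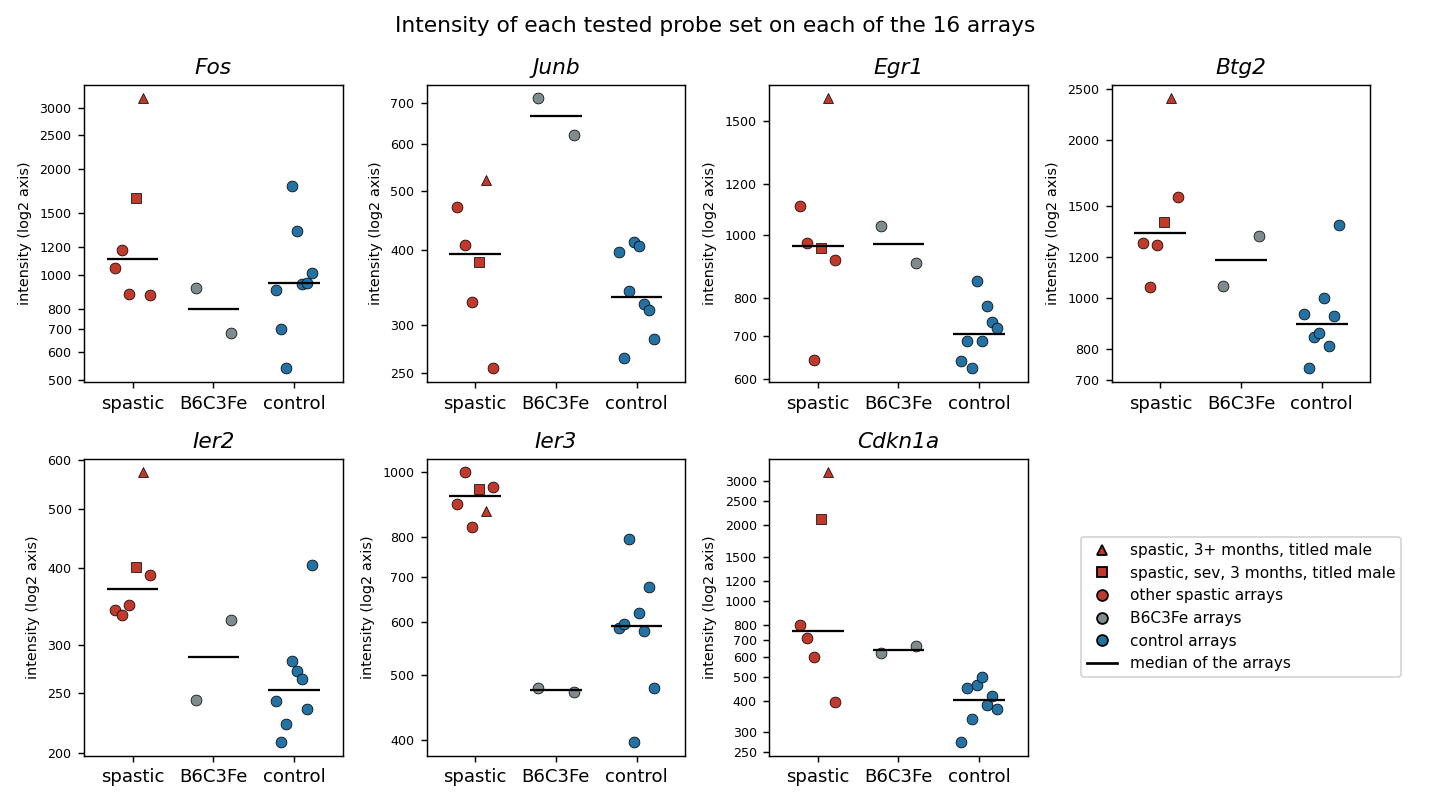
Intensity on a log2 axis of the tested probe set of each of the 7 genes on every array, by group, with a line at the median of the arrays. The 3+ month spastic array is the highest spastic array for Fos, Junb, Egr1, Btg2, Ier2 and Cdkn1a, while for Ier3 all 6 spastic arrays lie between 829.7 and 1000, above the 8 control arrays.

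Ier3 had the most even rise. Its intensities on the spastic arrays were 829.7 (Spa1), 951.4 (Spa2), 943.7 (sev), 875.3 (3+ months), and 1000 and 898.3 (Spa-M). Those on the B6C3Fe arrays were 478.2 and 472.3. Control arrays ran from 397.4 over a median of 590.4 to 795.5. Every spastic array thus lay above every control array and both B6C3Fe arrays. Ier3 is the only 1 of the 7 genes with no overlap between spastic and control arrays. Of all genes tested, 3.69% had every spastic array above every control array. The mean log2 level was 9.83 ± 0.09 (SD, n = 5) in spastic and 9.18 ± 0.22 (SD, n = 4) in control samples, a 1.58-fold rise in limma's fit (log2 difference 0.66, SE 0.12, adjusted p = 0.0047). Leaving out the 10 samples in turn kept the call each time, with differences of 0.60 to 0.72. It also held without both spastic samples titled male (0.83, adjusted p = 0.0259). The gene's promoter window runs from 250 bases before to 50 bases after the annotated start (RefSeq, GRCm38.p6, chr17:35821463-35821762, plus strand). It lacks the core TGACG of the cyclic AMP response element (CRE), as do both Cdkn1a windows. The Fos, Junb and Btg2 windows hold that core, as do 20.8% of all windows, so most windows lack it. Capitals mark CCAAT boxes at -244 and -175 and a GC box at -96.
Ier3: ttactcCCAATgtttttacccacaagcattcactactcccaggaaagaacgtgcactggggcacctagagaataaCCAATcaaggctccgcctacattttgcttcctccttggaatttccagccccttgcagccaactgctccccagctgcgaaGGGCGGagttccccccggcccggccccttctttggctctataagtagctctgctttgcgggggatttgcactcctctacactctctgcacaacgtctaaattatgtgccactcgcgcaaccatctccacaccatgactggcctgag

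Cdkn1a had the largest difference and the widest spread. On its tested probe set the spastic arrays were at 599.9 (Spa1), 396.7 (Spa2), 2112 (sev), 3255 (3+ months), and 713.5 and 800.0 (Spa-M). The B6C3Fe arrays were at 619.8 and 662.1. Controls ran from 274.4 over a median of 402.3 to 496.2. The sev and 3+ month cords, both titled male, stood far above the other spastic arrays, 5 of 6 spastic arrays were above every control array, and the Spa2 cord lay within the control range. The mean log2 level was 10.03 ± 1.28 (SD, n = 5) in spastic and 8.62 ± 0.24 (SD, n = 4) in control samples, a 2.88-fold rise in limma's fit (1.53, SE 0.39, adjusted p = 0.0192). The second probe set gave the same order of samples at the top, with 1032 in the sev cord and 1123 in the 3+ month cord, 183.0 to 468.0 on the other spastic arrays, 568.5 and 591.8 on the B6C3Fe arrays and 146.4 to 456.0 on control arrays. Its log2 difference was 0.96 (SE 0.40, adjusted p = 0.184, in a fit of all 12422 probe sets without a filter, where the first probe set had adjusted p = 0.0937). Without the 3+ month cord the difference of the tested probe set was 1.20 (adjusted p = 0.0495). Without both spastic samples titled male it was 0.53 (adjusted p = 0.292), and without a sex term 1.40 (adjusted p = 0.0727). It also lost its call without the 12-month male control (1.31, adjusted p = 0.0572) or the 9-month male control (1.32, adjusted p = 0.0581).

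A test of whether the spastic minus control difference was greater among samples titled male than among those titled female, added after the values were seen, gave Cdkn1a a log2 difference of 2.19 (SE 0.43, adjusted p = 0.28, limma). Fos had 1.95 (SE 0.45, adjusted p = 0.396) in the same test. In that test 0 of the 7 genes and 0.0467% of all genes were called, and 4 of the 7, against 449 of all 6425 genes, had an unadjusted p under 0.05. Titled sex and age change together among the spastic cords, and the titled sex goes against Xist there.

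RefSeq gives Cdkn1a a pair of starts, and both windows are printed to set them side by side. The upstream one (chr17:29090729-29091028, plus strand, GRCm38.p6) holds a match to the p53 response element consensus at -73 to -42, in capitals. Such a match was found in 24 of 32851 promoter windows (0.0731%). This motif was added after the windows had been seen. The downstream one (chr17:29093519-29093818, plus strand) holds GC boxes at -104 and -46, in capitals, and no p53 match. A match describes letters in the window and not bound protein.
Cdkn1a upstream start: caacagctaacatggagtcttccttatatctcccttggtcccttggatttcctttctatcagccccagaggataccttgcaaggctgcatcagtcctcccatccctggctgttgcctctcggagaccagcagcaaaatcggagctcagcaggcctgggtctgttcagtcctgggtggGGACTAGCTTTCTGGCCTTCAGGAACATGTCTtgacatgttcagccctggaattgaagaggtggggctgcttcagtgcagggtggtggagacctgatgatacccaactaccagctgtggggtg
Cdkn1a downstream start: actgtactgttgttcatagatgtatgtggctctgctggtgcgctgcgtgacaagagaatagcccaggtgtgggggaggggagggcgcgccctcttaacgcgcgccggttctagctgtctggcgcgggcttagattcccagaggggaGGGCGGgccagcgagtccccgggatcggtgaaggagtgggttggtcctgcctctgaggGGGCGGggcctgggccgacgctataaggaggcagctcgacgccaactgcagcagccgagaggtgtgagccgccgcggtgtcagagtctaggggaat

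Btg2, itself a p53-inducible gene, rose with Ier2. Btg2 was at 1264 (Spa1), 1558 (Spa2), 1396 (sev), 2400 (3+ months), and 1052 and 1273 (Spa-M) on the spastic arrays. It was at 1057 and 1312 on the B6C3Fe arrays. The control range was from 736.2 over a median of 893.0 to 1377. Of the 6 spastic arrays 3 lay above every control array, and the highest control array was array b of the 12-month female. In limma's fit Btg2 rose 1.64-fold (0.72, SE 0.20, adjusted p = 0.0266). Without the 3+ month cord the difference was 0.50 (adjusted p = 0.0441), and without both spastic samples titled male it was 0.36 (adjusted p = 0.225). With log2 of age in the model and B6C3Fe counted as control it was 0.55 (adjusted p = 0.121). The call was lost without the 12-month male control (0.62, adjusted p = 0.078) or the 9-month male control (0.66, adjusted p = 0.0733). The Btg2 window (chr1:134079106-134079405, minus strand, RefSeq, GRCm38.p6) is the only 1 of the 6 member windows with the full CRE TGACGTCA, the sequence that CREB binds, which 1.79% of all windows hold. Capitals mark it at -166, with CCAAT boxes at -173 and -34 and GC boxes at -115, -110 and -100.
Btg2: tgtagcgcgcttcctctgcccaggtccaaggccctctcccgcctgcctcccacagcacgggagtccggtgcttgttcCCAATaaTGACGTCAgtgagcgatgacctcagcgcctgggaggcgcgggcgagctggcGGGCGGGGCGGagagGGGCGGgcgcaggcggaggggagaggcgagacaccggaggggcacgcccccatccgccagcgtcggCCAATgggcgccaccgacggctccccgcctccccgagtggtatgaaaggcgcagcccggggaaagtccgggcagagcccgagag

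Ier2 was at 348.5 (Spa1), 390.3 (Spa2), 401.2 (sev), 573.8 (3+ months), and 335.3 and 342.3 (Spa-M) on the spastic arrays. The B6C3Fe arrays were at 243.5 and 329.9. Control arrays ran from 208.2 over a median of 253.6 to 405.1. All spastic arrays lay above 7 of the 8 control arrays, and 1 lay above the eighth, array b of the 12-month female control. That array exceeded array a of the same title by 0.74 on the log2 scale, the largest such gap among the tested probe sets of the 7 genes. The 1.55-fold rise just passed limma's test (0.63, SE 0.20, adjusted p = 0.0462), and when samples were left out in turn it passed in 2 of 10 fits, without the 12-month female control (0.76, adjusted p = 0.0471) and without the B6C3Fe sample (adjusted p = 0.0454). Without the 3+ month cord it was 0.46 (adjusted p = 0.119), without both spastic samples titled male 0.28 (adjusted p = 0.465), and with log2 of age and B6C3Fe counted as control 0.58 (adjusted p = 0.114). Over the 10 samples Btg2 and Ier2 had a Pearson correlation of 0.974, given as a description of samples that span all 3 groups.

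Fos, Egr1 and Junb did not pass the test. Fos was at 882.8 (Spa1), 875.1 (Spa2), 1654 (sev), 3190 (3+ months), and 1180 and 1044 (Spa-M) on the spastic arrays. The B6C3Fe arrays were at 918.0 and 681.0. Control arrays ran from 539.6 over a median of 944.1 to 1796. The 3+ month cord was the only spastic array above the control range, and the other 5 lay inside it. The log2 difference was 0.53 (SE 0.36, 95% interval -0.26 to 1.32, adjusted p = 0.327, limma), and 0.17 (adjusted p = 0.739) without the 3+ month cord. It was 0.23 (adjusted p = 0.683) without the 12-month male control and 0.91 (adjusted p = 0.0889) without the 9-month female control. Without both spastic samples titled male it turned to -0.36 (adjusted p = 0.41). The second Fos probe set, at or under the floor on 3 arrays, was at 20.51 to 138.3 on spastic, 125.4 and 126.7 on B6C3Fe and 38.71 to 180.0 on control arrays. It did not show the high value of the 3+ month cord (102.5), and its log2 difference was -0.56 (adjusted p = 0.16, fit of all probe sets). The Fos window (chr12:85473640-85473939, plus strand, RefSeq, GRCm38.p6) is printed for its CRE cores TGACG at -129 and -66, in capitals with a GC box at -74 and a TATA box at -33; 20.8% of all windows hold such a core.
Fos: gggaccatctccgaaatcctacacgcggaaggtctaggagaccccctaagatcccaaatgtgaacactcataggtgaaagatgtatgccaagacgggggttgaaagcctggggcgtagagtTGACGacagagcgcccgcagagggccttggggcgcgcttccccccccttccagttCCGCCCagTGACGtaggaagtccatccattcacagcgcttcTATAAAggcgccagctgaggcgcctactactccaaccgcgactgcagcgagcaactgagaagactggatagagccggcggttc

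Egr1 was at 642.0 (Spa1), 915.7 (Spa2), 956.1 (sev), 1627 (3+ months), and 971.5 and 1110 (Spa-M) on the spastic arrays. It was at 1035 and 906.7 on the B6C3Fe arrays. Controls ran from 623.1 over a median of 703.8 to 851.6. Of the 6 spastic arrays 5 lay above every control array, and Spa1 lay near the bottom of the control range. The log2 difference of 0.50 (SE 0.20, 95% interval 0.07 to 0.94) had an adjusted p of 0.0991 in limma's fit and an unadjusted p of 0.028. Without the 3+ month cord it was 0.31 (adjusted p = 0.237), and without both spastic samples titled male 0.24 (adjusted p = 0.533). It passed without Spa1 (0.63, adjusted p = 0.0383) and in the fits over all arrays, with every array as its own replicate (0.52, adjusted p = 0.0158), with the sample as a random block (0.51, adjusted p = 0.0279) and with the letter a or b as a replicate block (0.51, adjusted p = 0.029). The second Egr1 probe set ran the other way, at 94.30 to 157.2 on spastic arrays, 114.7 and 133.6 on B6C3Fe arrays and 125.3 to 450.3 on control arrays, with the highest control values in the 12-month female (380.4 and 450.3). Its log2 difference was -0.79 (SE 0.33, adjusted p = 0.194, fit of all probe sets), so the direction for Egr1 depends on the probe set.

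Junb was at 327.7 (Spa1), 254.0 (Spa2), 380.8 (sev), 522.6 (3+ months), and 406.6 and 471.1 (Spa-M) on the spastic arrays. It was at 713.0 and 619.4 on the B6C3Fe arrays. The control range was from 264.0 over a median of 333.8 to 411.7. Spastic and control arrays overlapped, and both B6C3Fe arrays lay above all others. The spastic minus control difference was 0.15 (SE 0.21, 95% interval -0.32 to 0.62, adjusted p = 0.657, limma). Leaving out samples in turn moved it between 0.0024 without the 3+ month cord and 0.29 without the 9-month female control, with adjusted p of 0.335 to 0.996 over the 10 fits. The second Junb probe set was at 68.79 to 628.1 on spastic arrays, highest in the 3+ month cord, at 94.35 and 453.8 on the B6C3Fe arrays and at 56.88 to 82.09, near the floor, on control arrays. Its log2 difference was 1.30 (SE 0.51, adjusted p = 0.164, fit of all probe sets). The Junb window holds a CRE core at -106, a CCAAT box at -36 and a TATA box at +1.

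**Figure D2:**
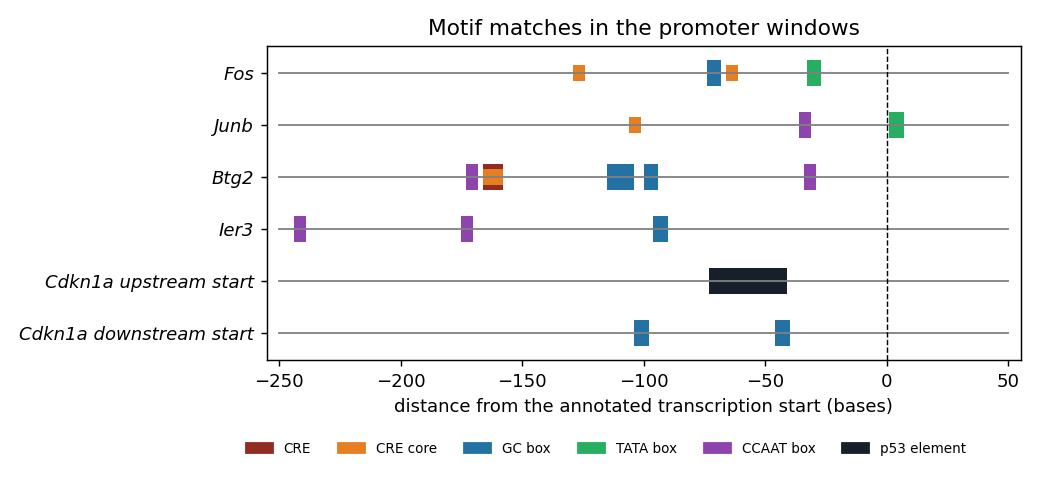
Matches of the searched motifs in the promoter windows of Fos, Junb, Btg2, Ier3 and the starts of Cdkn1a, by distance in bases from the annotated start. The full CRE lies only in Btg2 among these 6 windows, and the p53 match only at the upstream start of Cdkn1a.

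Motifs were searched on both strands of the windows, for the 5 genes that matched by symbol (6 windows); Egr1 and Ier2 are named only. The share of all 32851 windows with a match was 35.7% for the GC box GGGCGG, 13.6% for the TATA box TATAAA and 37.4% for the CCAAT box. It was 7.81% for the AP-1 site TGANTCA and 1.63% for the CArG box, to which SRF binds. The AP-1 site and the CArG box had 0 matches in the 6 windows, which says only that these letters are not in this stretch. CRE cores lie inside the full CRE, once on each strand.

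A single cord carried much of the variation. The 3+ month spastic cord was the highest of the 10 samples for 5 of the 7 genes, Fos, Egr1, Btg2, Ier2 and Cdkn1a, and 15.1% of all genes tested had their highest value in it. It exceeded the mean of the other 4 spastic samples by 2.05 for Cdkn1a, 1.55 for Fos, 0.90 for Egr1, 0.85 for Btg2, 0.64 for Ier2 and 0.61 for Junb on the log2 scale. Of all genes tested 5.81% exceeded that mean by 0.5 or more, and the median over all of them was -0.01. Ier3 was at -0.07. The sev cord shared the high Cdkn1a, 1.90 above the mean of the Spa1, Spa2 and Spa-M cords, and the higher Fos (0.80), while Egr1 (0.17), Btg2 (0.09), Ier2 (0.16), Ier3 (0.06) and Junb (0.20) were near that mean. These are differences within 1 group and were not tested.

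**Figure D3:**
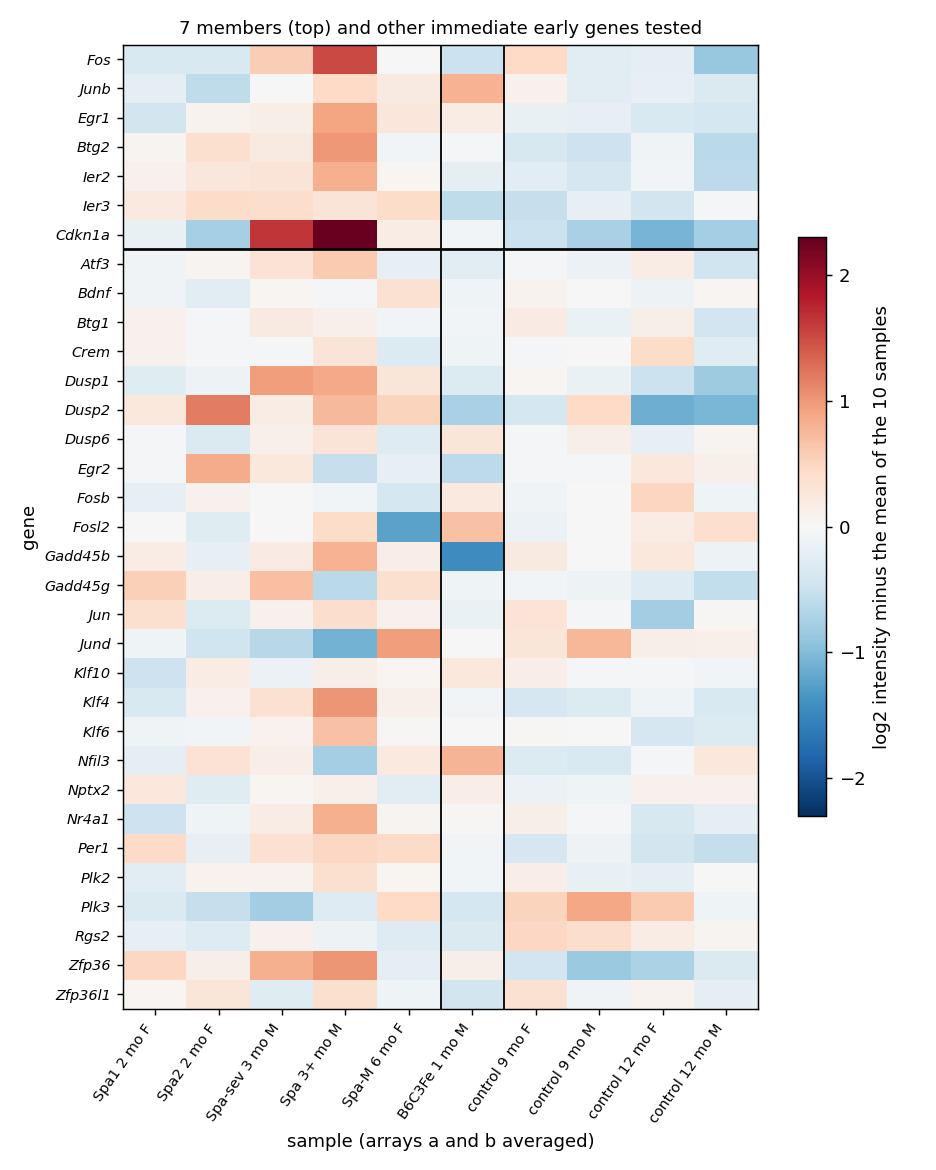
Log2 intensity minus the mean of the 10 samples for the 7 genes (above the line) and 26 other immediate early genes tested, with spastic samples on the left, then B6C3Fe, then controls. The 3+ month spastic cord is at 2.27 for Cdkn1a and 1.51 for Fos, and the B6C3Fe sample is at 0.80 for Junb.

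Other measures also differed between the groups. RNA integrity was gauged by the log2 ratio of the 3-prime to the 5-prime probe set of the Pcx control transcript. The ratio was 2.00 to 2.98 on spastic arrays, highest in the 3+ month cord. It was 1.67 and 1.89 on B6C3Fe arrays and 1.31 to 2.72 on control arrays. The 2.72 was array a of the 9-month female control, whose array b was at 1.31, and the other control arrays reached at most 2.09. Since ratio and group changed largely together, a fit with both cannot tell them apart. With this ratio as a covariate 0 of the 7 genes were called by limma, as were 9 of all 6425. Ier3 then was at 0.80 (SE 0.18, adjusted p = 0.0684) and Cdkn1a at 0.36 (SE 0.40, adjusted p = 0.684). Btg2 was at 0.40 (adjusted p = 0.5) and Ier2 at 0.35 (adjusted p = 0.57), while Fos turned to -0.50 (adjusted p = 0.545). Egr1 (-0.02) and Junb (-0.45) turned too.

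Endothelial and mural cell markers also moved with the group. Of 15 such markers 11 were tested, and 9 were higher in spastic cords and 0 lower, against 9.82% of all genes called higher. Their summed intensity was 9459 to 11630 on spastic, 5486 and 5500 on B6C3Fe and 4516 to 6011 on control arrays, with the highest sum, 11630, in the 3+ month cord. Motor neuron markers moved too. Of 4 on the array 3 were tested, and Slc18a3, the vesicular acetylcholine transporter (2.05, SE 0.17, adjusted p = 0.000307, limma), and the acetylcholinesterase gene Ache (0.80, SE 0.14, adjusted p = 0.00414) rose, while Prph was at 0.02 (adjusted p = 0.958). Their summed intensity was 5269 to 8514 on spastic, highest in the 3+ month cord, 4004 to 4690 on B6C3Fe and 3345 to 5144 on control arrays. Microglial and macrophage markers summed to 7687 to 12850 on spastic arrays, lowest in the 3+ month cord, against 10080 to 10540 on B6C3Fe and 11260 to 14340 on control arrays. The sum of skeletal muscle markers was 853.0 in the 3+ month cord, at the bottom of a spastic range that reached 9333, against 3208 to 3612 on B6C3Fe and 4066 to 9614 on control arrays. Of the 15, 4, 10 and 7 markers of these lists on the array, 0 were at the floor on all arrays. The part of these cell types and of RNA integrity in the differences was not tested beyond the fit with the Pcx ratio.

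**Figure D4:**
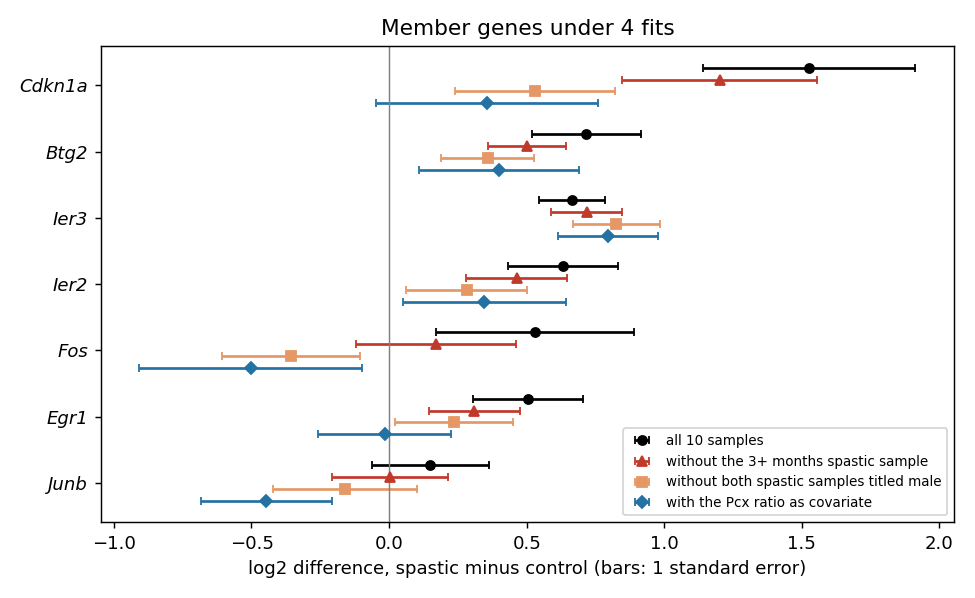
Log2 difference, spastic minus control, of the 7 genes in 4 limma fits, with bars of 1 standard error. Ier3 stays between 0.66 and 0.83, whereas Cdkn1a is at 1.53 with all 10 samples, 1.20 without the 3+ month cord, 0.36 with the Pcx ratio and 0.53 when both spastic samples titled male are left out.

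Other immediate early genes were called about as often as all genes. Of 44 listed genes 34 are on the array and 26 were tested, with 3 higher and 2 lower in spastic cords, against 9.82% called higher and 19.8% called in either direction among all genes. Their median log2 difference was 0.08, and 16 of the 26 differences were positive. Zfp36, which encodes tristetraprolin, a protein that speeds the decay of short-lived mRNAs, rose 2.11-fold (1.08, SE 0.22, adjusted p = 0.00719, limma). The MAP kinase phosphatase Dusp2 (1.11, adjusted p = 0.0313) and the clock gene Per1 (0.68, adjusted p = 0.015) also rose. The polo-like kinase Plk3 fell by 0.81 (adjusted p = 0.0332) and Rgs2, which shortens G-protein signals, by 0.43 (adjusted p = 0.0462). The partners of Fos and Junb in AP-1 did not pass, with Jun at 0.27 (adjusted p = 0.457), Jund at -0.63 (adjusted p = 0.179) and Fosb at -0.20 (adjusted p = 0.423). Dusp1 was at 0.74 (adjusted p = 0.0548), Klf4 at 0.57 (adjusted p = 0.106), Nr4a1 at 0.25 (adjusted p = 0.423) and Egr2 at -0.02 (adjusted p = 0.962). Klf4 was highest in the 3+ month cord, at 9.14 against 7.78 to 8.48 in the other spastic samples on the log2 scale.

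Of 19 genes that signal to immediate early promoters 7 were tested, and 2 were higher and 2 lower in spastic cords by limma. Of all genes 9.82% were called higher and 19.8% in either direction. The catalytic subunit of protein kinase A, Prkaca, which phosphorylates CREB, rose by 0.99 (SE 0.12, adjusted p = 0.001), and the CREB coactivator Crebbp by 0.48 (adjusted p = 0.0261). The kinases Mapk8 (-0.68, adjusted p = 0.00398) and Map2k1 (-0.41, adjusted p = 0.0165) fell. Elk1, an SRF partner, was at -0.24 (adjusted p = 0.449).

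Of 18 genes around p53, with Cdkn1a and Btg2 among them, 9 were tested, with a median difference of 0.14. By limma 3 were higher in spastic cords, Cdkn1a and Btg2 among these, and 1 was lower. Of all genes 9.82% were called higher and 19.8% in either direction. Zmat3 rose by 0.49 (adjusted p = 0.0113), and cyclin G1, Ccng1, fell by 0.72 (SE 0.13, adjusted p = 0.00507). Mdm2, the ubiquitin ligase that p53 induces against itself, was at 0.08 (adjusted p = 0.685), Gadd45a at -0.06 (adjusted p = 0.802) and Phlda3 at 0.25 (adjusted p = 0.148). Among 10 tested genes of a list of cyclin-dependent kinase inhibitors and partners, 3 were higher and 1 was lower, beside the same shares of all genes. The kinase inhibitor Cdkn2d (0.45, adjusted p = 0.0107), the neuronal kinase Cdk5 (0.46, adjusted p = 0.00616) and cyclin E1, Ccne1 (0.37, adjusted p = 0.0384), rose, and the retinoblastoma gene Rb1 fell by 0.73 (adjusted p = 0.0163). Pcna, the replication clamp that p21 binds, was at -0.54 (adjusted p = 0.0527). The kinase inhibitors Cdkn1c (-0.13, adjusted p = 0.63) and Cdkn2c (-0.24, adjusted p = 0.333) did not pass.

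Glucocorticoids induce Cdkn1a, Per1 and Dusp1 among other genes. Of 12 listed glucocorticoid response genes, with Cdkn1a among them, 10 were tested. By limma 4 were higher in spastic cords and 0 lower, against 9.82% of all genes called higher and 19.8% called in either direction. The median difference was 0.71. The 4 were Fkbp5, a chaperone of the glucocorticoid receptor (1.27, SE 0.23, adjusted p = 0.00449), Nfkbia, the inhibitor of NF-kappa B (0.69, adjusted p = 0.0125), Per1 and Cdkn1a. The kinase Sgk1 was at 1.12 (SE 0.45, adjusted p = 0.108) and Zbtb16 at 1.16 (adjusted p = 0.0526), while the metallothioneins Mt1 (-0.26, adjusted p = 0.495) and Mt2 (-0.15, adjusted p = 0.7) did not pass either. Fkbp5 was highest in the same cords as Cdkn1a, at 11.84 in the sev and 11.75 in the 3+ month cord, 10.34 to 10.73 in the other spastic samples, 11.07 in the B6C3Fe sample and 9.31 to 10.12 in controls on the log2 scale. Per1 and Dusp1 belong to this list and to the immediate early list. For spastic minus B6C3Fe, 0 of the 10 were called, against 2.05% of all genes, and the median difference was 0.29. The part of glucocorticoids in these differences was not tested.

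The comparison with B6C3Fe places the mutants beside a single sample of 1 month, which was assumed to vary like the others. Only Ier3 of the 7 genes was called and rose 2.05-fold (1.03, SE 0.21, adjusted p = 0.035, limma), against 2.05% of all genes called in either direction. When spastic and control samples were left out in turn, 5 of 9 fits lost this call, those without Spa1, the sev cord, the 3+ month cord, the 12-month female control or the 9-month male control. Fos was at 1.01 (SE 0.62, adjusted p = 0.386), Cdkn1a at 1.43 (SE 0.67, adjusted p = 0.257) and Junb at -0.76 (SE 0.37, adjusted p = 0.274). Among the other immediate early genes Gadd45b was 1.75 higher in spastic cords (SE 0.36, adjusted p = 0.035). Among the kinase inhibitors Cdkn1c was 1.51 lower (SE 0.30, adjusted p = 0.035). Against controls the spastic cords were at 0.15 for Gadd45b (adjusted p = 0.648) and -0.13 for Cdkn1c (adjusted p = 0.63). The B6C3Fe sample against controls was at -1.60 for Gadd45b (adjusted p = 0.0843) and 1.37 for Cdkn1c (adjusted p = 0.0808). The spastic minus B6C3Fe comparison shares the spastic arrays with the spastic minus control comparison. Its values are corrected for titled sex, a term at -1.22 for Cdkn1a (female minus male), and Xist goes against the titled sex of the spastic males. The 1.43 for Cdkn1a is thus not the distance between measured levels. Mean log2 levels of Cdkn1a were 10.03 in the spastic samples and 9.32 in the B6C3Fe sample. Those of Fos were 10.40 and 9.63.

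B6C3Fe against control showed 0 of the 7 genes called by limma, with 0.389% of all genes called and 1 of the 7, against 967 of all 6425 genes, at an unadjusted p under 0.05, a share near that of all genes. That gene was Junb, at 0.91 (SE 0.37, adjusted p = 0.28), with both B6C3Fe arrays above all 8 control arrays. Cdkn1a was at 0.09 (SE 0.67) in this fit, although both B6C3Fe arrays lay above every control array. The fit corrects for titled sex, and the B6C3Fe sample is titled male. Ier3 was at -0.37 (SE 0.21, adjusted p = 0.437).

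The remaining contrasts called 0 of the 7 genes and 0% of all 6425 by limma. For the sev cord against the other spastic samples, Cdkn1a was at 0.45 (SE 0.77, adjusted p = 0.996) in a fit that also holds titled sex, a term that draws on all groups. The measured log2 level of Cdkn1a was 11.04 in the sev cord and 11.67 in the 3+ month cord, so the positive value does not mean that the sev cord lay above it. In that contrast 0 of the 7 and 256 of all genes had an unadjusted p under 0.05. For female against male by title, Cdkn1a was at -1.22 (SE 0.39, unadjusted p = 0.00871, adjusted p = 0.797), the only 1 of the 7 at an unadjusted p under 0.05, as were 389 of all genes. Control intensities of Cdkn1a overlapped by titled sex, at 274.4 to 496.2 on female and 340.7 to 451.6 on male arrays. Spastic cords titled male, at 2112 and 3255, lay above those titled female, at 396.7 to 800.0. Xist goes against the titled sex of these spastic males, so the -1.22 cannot be read as a sex difference. For controls of 12 against 9 months, Fos was at -0.66 (SE 0.55, adjusted p = 0.946), and 0 of the 7 and 321 of all genes had an unadjusted p under 0.05.

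The genes whose values over the 10 samples were most like those of Cdkn1a, by Pearson's r among all named genes tested, were Agt, angiotensinogen (r = 0.969), Tspan4 (0.952), Rbbp4 (0.947), Dpcd (0.938) and Rhou (0.937). Agt was at a log2 difference of 0.75 between spastic and control samples and stood 0.93 above its 10-sample mean in the 3+ month and 0.62 above it in the sev cord. Those most like the mean of the 6 immediate early genes were Ptgds, prostaglandin D synthase (0.964), Tle3 (0.963), Sars (0.963), Ski (0.963) and Mcl1, a survival factor of the BCL2 family (0.958). Mcl1 was at 0.45 and stood 0.62 above its mean in the 3+ month cord. Such r values were picked as the highest among all 5692 named genes tested and rest on samples that span the groups.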

How the data were processed

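A total of 16 single-colour arrays of mouse cord RNA were used. The authors' deposited intensity values are linear, 1 per probe set, and their mean after trimming 2% at each end was 800.4 to 800.5 on every array, so they were taken as already scaled; which software made them is not given here. Groups were read from the titles, and arrays a and b of a title were averaged, giving 10 samples. The 66 control probe sets were left out. Probe sets were named from GEO's platform annotation (10833 with 1 symbol, 396 with several, 1193 with none), and 10839 probe sets matched the RefSeq gene table of GRCm38.p6 by Entrez ID, with 0 symbols changed. A probe set was tested if its mean log2 intensity passed the 40th percentile (7.62), using the brightest of a gene, which left 6425 genes, 733 of them without a single symbol. Promoter windows are RefSeq's for GRCm38.p6.

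Tests used limma 3.58.1 in R 4.3.3 (lmFit, eBayes with an intensity trend). Terms were group and sex as titled, all groups sharing 1 spread, 2-sided, with Benjamini-Hochberg adjustment over all genes tested. The sev and age contrasts used a fit with control ages and sev as groups of their own. Differences are log2, the group named first minus the other. The fit was also run on simulated data for spastic minus control, with independent normal noise and upward changes in 200 of 6425 genes. It recovered 90% of 2-fold and 97% of 4-fold changes. Differences in RNA integrity between groups were not simulated. Alternatives covered the floor (10th, 40th percentile), the filter, quantile normalization, arrays as replicates or blocks, only the 1a arrays, all probe sets, the trend, sex, age and Pcx terms, and left-out samples. The members, lists and tests were chosen with earlier results of these data known. Named genes were all 7 members, called genes of the lists and up to 4 others with the smallest p per list, and the 5 genes most like each profile. Jun, Fosb, Nr4a1, Egr2 and Mt2 were named beyond that rule after their values were seen.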

Additional observations from a re-analysis of the deposited data

How the results depend on the processing

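For spastic minus control, 4 of the 7 genes and 1269 of all 6425 were called. With the floor, the quantile, the trend, the 60th percentile filter, the every-probe-set and the no-sex-term alternatives the members' count was 3 or 4. It was 1 with no filter, 0 with the Pcx ratio (9 genes in all), 2 with log2 of age added and B6C3Fe counted as control (701 in all), 1 without both spastic samples titled male (398 in all) and 1 with only samples titled female (163 in all). With only the 1a arrays 758 genes were called in all. Leaving out 1 sample gave 1 to 4 members and 722 to 1272 genes in all. The count of members was 1 without the 12-month male control and 1 without the 9-month male control, and all genes were 722 without the 12-month female, 809 without the 12-month male and 789 without the 9-month male control. The cause was not tested, though fits with fewer samples have less power by construction. For spastic minus B6C3Fe the members' count of 1 became 0 with only the 1a arrays, without the trend and with the Pcx ratio, and was 0 to 1 with 1 sample left out. For B6C3Fe minus control the 0 became 1 with every array as its own replicate. The letter a or b as a replicate block gave 5 members, Egr1 in addition, and 1818 genes for spastic minus control and 1 member for B6C3Fe minus control; letters do not mark shared animals in the labels. Directions turned for Fos with the Pcx ratio (-0.50), with only samples titled female (-0.36) and without both spastic samples titled male (-0.36). They turned for Junb with the Pcx ratio (-0.45), with B6C3Fe among the controls (-0.0016), with log2 of age added (-0.21), with only samples titled female (-0.16) and without both spastic samples titled male (-0.16), and for Egr1 with the Pcx ratio (-0.016). Probe sets near the floor limit what the second probe sets of Fos and Junb can show.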
